A study of Mus musculus with 4 samples.

Results

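The inflammation-associated miRNAs mmu-miR-146a-5p, mmu-miR-146b-5p and mmu-miR-155-5p (mmu for mouse, left out from here on) were followed in the exosome fraction released by 3T3-L1 preadipocytes, a mouse fibroblast line that can be turned into adipocytes in culture. They are 3 of the 1881 mouse miRNAs on the array and were taken by name. The arrays showed a different course for each of them. miR-146a-5p was not detected on any day. miR-146b-5p was absent from the detected miRNAs at D0 and was detected at D4, D12 and D16. miR-155-5p was detected at D4 alone.

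RNA of the exosome fraction was labelled with Cy3 and read on 4 arrays, of D0, D4, D12 and D16 with 1 array each, counted in days after growth medium was replaced by differentiation medium. D0 medium came from undifferentiated cells in low-glucose growth medium. After D0 the cells received 1-methyl-3-isobutylxanthine, dexamethasone and insulin for the first step of induction, and insulin in high-glucose medium from then on, so D4, D12 and D16 all followed the same switch. All media held serum depleted of exosomes. The labels name no genotype, transgene or animal, and the cells on every day were of this single line. Each array held material mixed from independent experiments, 2 by the paper's methods and 3 by the labels, so an array is a pool without a replicate. No test between days was possible and no p-value is given, and precision is limited by the number of arrays.

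miRNAs are short RNAs that guide a silencing complex to messenger RNAs, mainly through the bases near their 5′ end, called the seed. miR-146a is induced by NF-kB, the transcription factor of inflammatory signalling. miR-146a and miR-146b repress the adaptor proteins Traf6 and Irak1 of Toll-like receptor signalling, which for miR-146a forms a negative feedback loop. miR-155 is processed from the transcript of its host gene Mir155hg (also called Bic) and is induced in activated macrophages and lymphocytes. Its known targets include Socs1, an inhibitor of cytokine signalling, and Cebpb, a transcription factor that acts early in adipogenesis. miR-146b has been described as promoting adipocyte differentiation. In fat tissue these miRNAs are known both from adipocytes and from the macrophages that reside among them.

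The mature sequences are shown to make clear which of the 3 miRNAs share a seed and how little separates the pair of miR-146 forms. They are from RefSeq on GRCm38.p6, which held all 3, and the capitals mark the seed, bases 2 to 8 from the 5′ end.
miR-146a-5p: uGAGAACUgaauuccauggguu
miR-146b-5p: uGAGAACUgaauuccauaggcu
miR-155-5p: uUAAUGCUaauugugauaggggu
miR-146a-5p and miR-146b-5p have the same seed and are identical at 20 of 22 positions. From miR-146a-5p to miR-146b-5p the substitutions are G18A and U21C, counted from the 5′ end, and both lie outside the seed. No other mature miRNA among the 1738 entries of the table has the seed of the miR-146 pair, and miR-155-5p shares its seed with none of them. By name the table matched 23 of the 32 miRNAs examined here, so a miRNA it lacks could share these seeds. Each is transcribed from its own locus. Mature miR-146a-5p lies at chr11:43374435-43374456 on the minus strand, within no other gene of the RefSeq table. miR-146b-5p lies at chr19:46342790-46342811 on the plus strand, within the span of the long noncoding RNA Gm36493. miR-155-5p lies at chr16:84714143-84714165 on the plus strand, within the long noncoding RNA Mir155hg.

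The values are total gene signals, intensities in arbitrary units that the scanner software summed over those probes of a miRNA whose signal exceeded 3 times their own error. Errors given with ± are those stated by the software and cover variation within an array alone. The arrays were not equally bright. The number of detected miRNAs was between 329 (D0) and 426 (D4), and the software marked the variation between replicate spots at D0 as out of range, with a median of 21.1% against 7.19% to 8.07% on the other arrays. No spot was saturated. Among miRNAs detected both at D0 and later, the median unscaled ratio to D0 was 2.47 (D4), 1.91 (D12) and 1.32 (D16). On the log2 scale these shifts were 1.30, 0.94 and 0.40, and ratios relative to them are given beside the unscaled ones. The 6 mesenchymal and adipocyte markers were miR-199a-3p, miR-199a-5p, miR-214-3p, miR-143-3p, miR-193b-3p and miR-378a-3p. Of them 4 were detected at D0, 5 at D4 and 6 at D12 and at D16. Of all 1881 miRNAs, 17.5%, 22.6%, 21.6% and 20.2% were detected in the order of the days. miR-199a-3p gave 62.8 ± 4.98, 581 ± 43.3, 551 ± 41.3 and 356 ± 26.8 in the same order.

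miR-155-5p, the miRNA of activated immune cells, had a total gene signal of 33.9 ± 3.22 at D4 and was not detected at D0, D12 or D16. A miRNA could remain undetected up to 3 errors of each of its probes, which summed to 4.98 at D0, 6.68 at D12 and 5.30 at D16 for miR-155-5p. Against these limits the D4 signal was at least 6.80-fold higher than at D0, at least 5.08-fold higher than at D12 and at least 6.39-fold higher than at D16. The D4 signal stood apart from the other 3 days, among which no order can be given. It ranked 134 among the 426 miRNAs detected at D4 and was 1.73 times their median, so it was neither among the brightest nor near the detection limit.

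Detection at D4 alone was uncommon. Of the 467 miRNAs detected on at least 1 array, 23 were detected at D4 alone (4.93%), and miR-155-5p was the brightest of them. The next, chosen here after the values were seen, was miR-1897-3p with a signal of 12.7 ± 1.91, followed by miR-664-5p with 12.5 ± 1.91. The other 22 had a median of 4.32 at D4 and none was above 12.7. miR-155-5p was also the brightest at D4 of the 52 miRNAs detected then and not at D12, ahead of miR-483-5p with 27.9, and of the 70 not detected at D16, ahead of miR-7218-5p with 30.6. Across all miRNAs detected at D4 or D12, 14.4% had a D12/D4 ratio below 0.5 with undetected signals taken at their limits, as miR-155-5p did. For D16/D4 the share was 24%. Among the 426 miRNAs detected at D4, the miR-155-5p bound held place 9 from the lowest for D12/D4 and 13 for D16/D4. The lowest D12/D4 ratio among them was 0.073. Higher at D4 than at D0 by more than 2-fold were 54.3% of the miRNAs detected on either day, so a D4 signal above D0 was the common case. A D12/D4 ratio below 0.5 was less common by these counts. However, a faint miRNA cannot pass 0.5 when its undetected signal is taken at the limit. The 52 not detected at D12 had a median D4 signal of 6.66, and the D12/D4 bound of miR-1897-3p was 0.520. The share and the place of miR-155-5p therefore depend also on its brightness at D4.

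**Figure D1:**
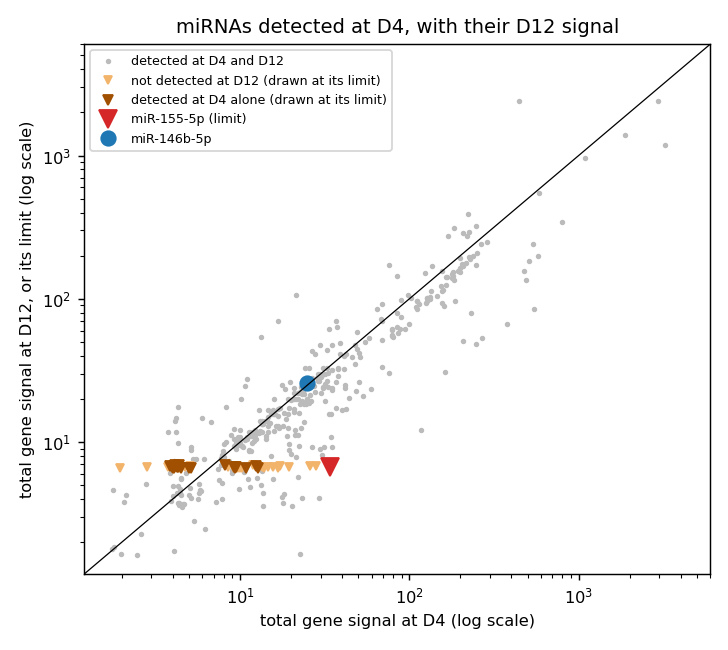
Total gene signal at D12 against that at D4 for the miRNAs detected at D4, on log scales with the line of equal signal, triangles marking miRNAs not detected at D12 and drawn at their detection limit. miR-155-5p (33.9 at D4, limit 6.68 at D12) is the rightmost triangle, and miR-146b-5p (24.9 and 25.7) lies on the line.

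Both probes of miR-155-5p gave the same pattern. Probe A_54_P2337 had total signals of 1.82 ± 0.839 for D0, 26.4 ± 2.90 for D4, 2.36 ± 1.12 for D12 and 1.37 ± 0.888 for D16. The dimmer probe A_54_P2336 had 0.526 ± 0.821, 7.50 ± 1.41, 0.537 ± 1.10 and 0.881 ± 0.880 on the same days. Each probe exceeded 3 errors at D4 and on no other day. At D0, A_54_P2337 was 2.16 errors above zero and at D12 2.10, a residual below the rule of detection.

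Single spots separated in the same way. Each probe was spotted 15 times per array. For A_54_P2337 the lowest, median and highest spot signals were 86.7, 94.3 and 108 at D4, with 15 of 15 spots well above background by the software's flag. They were 4.08, 7.95 and 14.2 at D0, 3.05, 7.79 and 13.4 at D12, and -0.852, 7.68 and 12.4 at D16, with 0 spots flagged on each of these days. The D4 spots did not overlap with those of any other day, whereas the spots of D0, D12 and D16 overlapped throughout. The share of all probes with spots separated in this way was not computed. Of the 317 miRNAs detected at both D0 and D4, 300 were higher at D4, so separation from D0 alone may be common. The 1000 negative-control spots had medians of 0.907, 1.30, 1.75 and 2.50 in the order of the days, and 95% of them were below 7.43, 7.95, 7.91 and 9.10 in the same order. The median of the miR-155-5p spots at D0 was thus just above this level, and the medians at D12 and D16 were below it. Each of these medians was above the control median of its array. The 95% level is one of single control spots, so a median of 15 spots below it is not thereby shown to be background. Spots are technical repeats on 1 array, not replicates of a day.

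**Figure D2:**
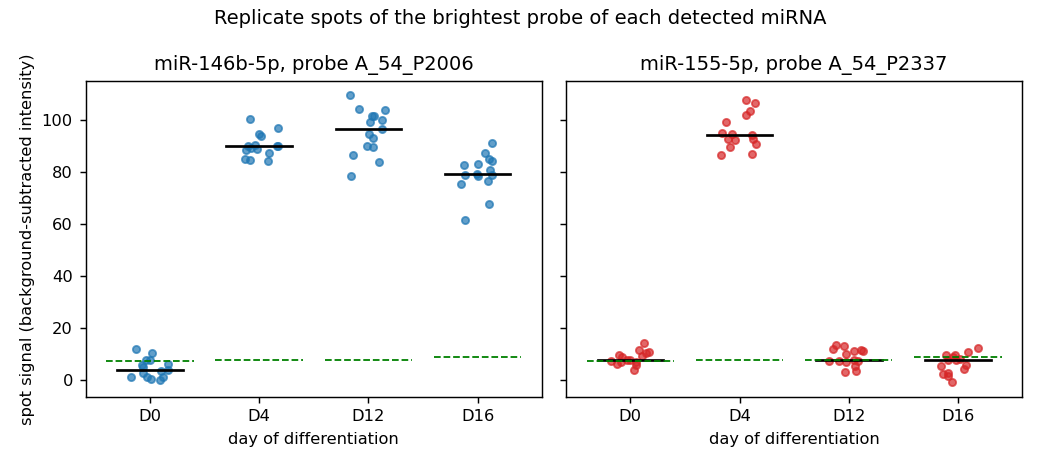
Background-subtracted signal of the 15 replicate spots of the brightest probe of miR-146b-5p (left) and miR-155-5p (right) on each array, with the median as a black line and the level below which 95% of negative-control spots lay as a green dashed line. All miR-155-5p spots at D4 were at 86.7 or above while the highest on another day was 14.2, and the miR-146b-5p spots were at 61.6 or above at D4, D12 and D16.

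The bounds on the miR-155-5p signal were smaller after the arrays were scaled, and each stayed above 1. Relative to the median ratio of miRNAs detected on both days, it was at least 4.39-fold higher at D4 than at D12, at least 3.79-fold higher than at D16 and at least 2.76-fold higher than at D0. Scaled by the 75th percentile, which lowered the bounds most among the scalings, it was at least 3.92-fold, 3.40-fold and 1.60-fold higher in the same order. The bound against D0 then fell below the 2-fold threshold. Normexp background correction with its offset left none of these differences past the threshold, with a D12/D4 ratio of 0.563, a D16/D4 ratio of 0.549 and a D4/D0 ratio of 1.71.

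miR-146b-5p, which has the seed of miR-146a-5p, was not detected at D0. Its total gene signals were 24.9 ± 2.76 (D4), 25.7 ± 2.80 (D12) and 17.1 ± 1.93 (D16). The D0 limit was 4.93. The signal was therefore at least 5.05-fold higher at D4 than at D0, and for the later days these lower bounds were 5.20-fold (D12) and 3.47-fold (D16). The share of miRNAs more than 2-fold higher than at D0, counted with the same limits, was 54.3%, 41.6% and 27.9% for the 3 later days, so a signal past the 2-fold threshold was common on these arrays. Relative to the median ratio the bounds were 2.05, 2.72 and 2.64 in the order of the days. With the 75th percentile they were 1.19, 1.58 and 1.53, all above 1 and below the 2-fold threshold. Normexp background correction with its offset gave ratios of 1.58, 1.63 and 1.52, also below it.

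From D4 to D12 the unscaled miR-146b-5p signal had a ratio of 1.03 ± 0.160 (technical error), beside a median ratio of 0.865 over the 374 miRNAs detected on both arrays. The ratio was 1.19 relative to that median, 1.26 after quantile normalization and 1.33 with the 75th percentile, all short of 2-fold. From D12 to D16 the unscaled ratio was 0.668 ± 0.105, beside a median ratio of 0.703 over the 371 miRNAs detected on both arrays, of which 355 were lower at D16. A fall below 0.5-fold was seen for 6.75% of the miRNAs detected on either, and miR-146b-5p was not among them. After any scaling it lay between 0.845 and 0.970. The software multiplied total signals by an effective spot size, which was 0.760 at D12 and 0.6 at D16, and the mean spot signals of the bright probe gave a ratio of 0.832. By rank miR-146b-5p held place 176 among 426 detected miRNAs at D4, 147 among 406 at D12 and 158 among 380 at D16.

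Gain at D4 with detection on both later arrays was seen for 67 of the 467 miRNAs detected at all (14.3%). Among these 67 miR-146b-5p was eighth in signal at D4, and its place was 11 at D12 and 12 at D16. Their median signals were 10.3, 11.1 and 7.21 on the 3 days, below the miR-146b-5p signal on each. Likeness of pattern was computed against the 283 miRNAs detected on all 4 arrays alone, so that the 67 above were not compared. Among the 283, the pattern of miR-146b-5p over its 3 arrays was most like those of miR-6985-3p, miR-3620-3p and miR-6955-3p, at root mean square log2 differences of 0.014, 0.014 and 0.017 after centring, against a median of 0.17. These 3 arrays are few points, and the signals of these miRNAs at D0 were 10.0, 13.5 and 7.29.

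The miR-146b-5p signal came from 1 of its 2 probes. Probe A_54_P2006 carried the whole of the signals above and was at 0.989 ± 0.827 at D0. Its lowest, median and highest spots were 0.266, 3.82 and 12.1 for D0, 84.5, 90.1 and 100.5 for D4, 78.7, 96.7 and 109.6 for D12, and 61.6, 79.5 and 91.2 for D16. All 15 spots were well above background on the 3 later arrays and none at D0. The D0 spots lay below those of every later day, and the spots of D4 and D12 overlapped. The share of all probes separated from D0 was not computed. By gene signal 54.3%, 41.6% and 27.9% of miRNAs were more than 2-fold higher than at D0 on the 3 later days. Probe A_54_P2005 stayed under 3 errors throughout, at -0.359 ± 0.818, 1.24 ± 1.19, 2.46 ± 1.13 and 1.45 ± 0.889 in the order of the days. It was highest at D12, with a median spot of 10.1, and lowest at D0, with a median of -2.12. Over the detected probe alone, the D0 limit was lower and the bounds rose to 10.0, 10.3 and 6.91 for the 3 later days.

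**Figure D3:**
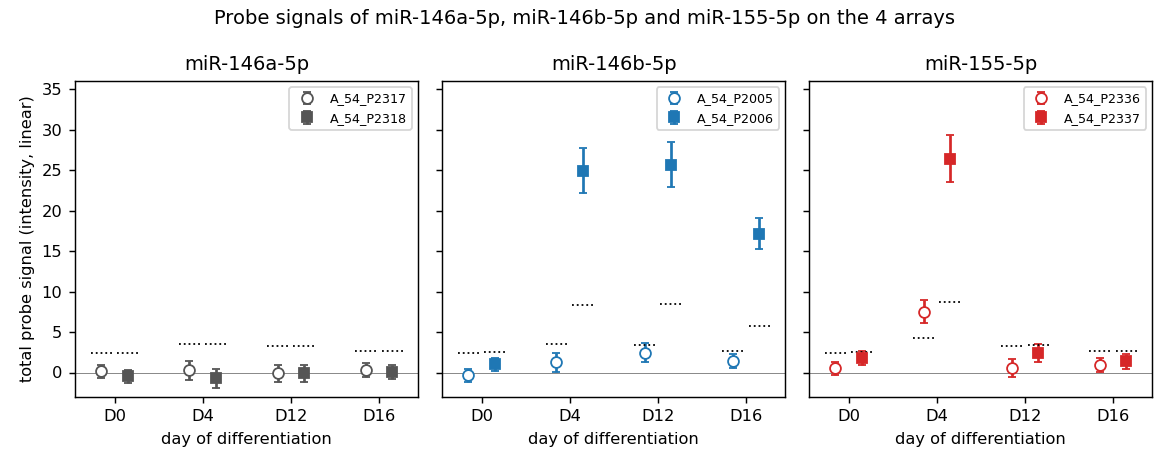
Total probe signal (intensity, linear scale) of both probes of miR-146a-5p, miR-146b-5p and miR-155-5p by day, with bars of 1 error as stated by the software and a dotted line at 3 errors of that probe, the level of detection. miR-146a-5p stays under the dotted lines on every day, 1 probe of miR-146b-5p exceeds them from D4 on, and both probes of miR-155-5p exceed them at D4 alone.

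miR-146a-5p, which has the seed of miR-146b-5p, was not detected on any array, as was the case for 75.2% of the miRNAs on the arrays. Probe A_54_P2317 gave 0.134 ± 0.818, 0.283 ± 1.19, -0.110 ± 1.10 and 0.337 ± 0.876 in the order of the days. Probe A_54_P2318 gave -0.456 ± 0.818, -0.702 ± 1.19, -0.111 ± 1.10 and 0.106 ± 0.875. No value was more than 0.385 errors above zero, and 0 of 120 spots over the 4 arrays were well above background. A signal of up to 4.91 for D0, 7.12 for D4, 6.58 for D12 and 5.25 for D16 could have gone undetected, so a low level is not excluded on any day. The probes of miR-146a-5p and miR-146b-5p are different and their signals cannot be set against each other as amounts, but no signal above the limits appeared on the miR-146a-5p probes on the days when A_54_P2006 was bright.

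The opposite arms of the same hairpins, miR-146a-3p, miR-146b-3p and miR-155-3p, are the strands that are usually discarded when the guide strand is loaded. None of the 3 was detected on any day. Over their 8 probes and 4 arrays, none of the 32 probe signals exceeded 3 errors and the highest was 0.822 errors above zero. The D4 signal of the miR-155 hairpin was therefore detected on its 5p arm alone.

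Among 12 other miRNAs known from innate immune and NF-kB signalling, 3 (D0), 5 (D4), 7 (D12) and 6 (D16) were detected, where 17.5%, 22.6%, 21.6% and 20.2% of all 1881 were detected on the same arrays. All 5 detected at D4 were more than 2-fold higher than at D0, beside 54.3% of all miRNAs detected on either day. From D4 to D12, 2 of the 7 detected on either day fell below 0.5-fold, against 14.4% of all. The 1 that rose above 2-fold, against 4.15% of all, was miR-223-3p, with a D12/D4 ratio of 4.12. miR-223-3p is also among the leukocyte markers below, so the lists are not independent. With 7 miRNAs these shares say little about the list.

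Among these 12, the pair below 0.5-fold at D12 by unscaled signal came nearest to the course of miR-155-5p without losing detection. miR-21a-5p, an abundant miRNA of fibroblasts that is also induced in inflammation, had 140 ± 12.0, 797 ± 68.5, 346 ± 30.3 and 268 ± 23.5 in the order of the days, a D12/D4 ratio of 0.434. miR-212-3p, from a CREB-responsive cluster with miR-132, was not detected at D0 and had 13.4 ± 1.97, 6.27 ± 1.27 and 5.58 ± 1.04 on the later days, a D12/D4 ratio of 0.467. Both had their highest unscaled signal at D4, as miR-155-5p did, and D4 was also the day with the highest median ratio to D0. Their D12/D4 ratios stand beside a median of 0.865 over all miRNAs detected on both days. No scaled ratio was computed for them, so whether they pass the threshold after scaling is not shown. miR-132-3p of the same cluster was not detected on any day, nor were miR-9-5p, miR-147-3p, miR-187-3p and miR-203-3p. miR-125b-5p and let-7i-5p followed another course, with D12/D4 ratios of 1.40 and 1.23. miR-181a-5p was first detected at D12, at 4.28 ± 1.18, and miR-181b-5p was detected at D12 alone, at 4.19 ± 1.17, both under the limits of D4.

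Leukocyte markers were examined because miR-146a-5p and miR-155-5p are abundant in blood cells. Of miR-142a-3p, miR-142a-5p, miR-150-5p and miR-223-3p, which mark blood cells, none was detected at D0, 1 at D4 and 3 at D12 and D16, beside the shares of all miRNAs given above, which were highest at D4. The summed signal of those detected was 16.9, 85.6 and 59.3 on the 3 later days. miR-223-3p, a miRNA of myeloid cells, carried most of it, with 16.9 ± 2.15, 69.6 ± 5.94 and 47.6 ± 4.14 on these days. At D12 miR-142a-3p was at 7.36 ± 1.32 and miR-142a-5p at 8.63 ± 1.67. Both were undetected at D4, where their limits were 7.21 and 7.15, and miR-150-5p was not detected on any day. miR-223-3p was thus lower at D4 than at D12, with a D12/D4 ratio of 4.12. For miR-142a-3p and miR-142a-5p the lower bounds on this ratio were 1.02 and 1.21, near 1. The D16/D12 ratio of miR-223-3p was 0.684, beside the median of 0.703 over all miRNAs detected on both arrays. The part of the leukocyte markers in the signals of miR-155-5p and miR-146b-5p was not tested. The liver miRNA miR-122-5p was detected at D12 (6.26) and D16 (4.13), and the muscle and neuron miRNAs miR-1a-3p, miR-133a-3p, miR-206-3p and miR-124-3p on no day. An array of pooled exosome RNA cannot tell apart a larger number of vesicles with a miRNA from more copies per vesicle.

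The size of the rise from D0 depended on how the arrays were scaled, while the fall of miR-155-5p after D4 depended on it less. Division by the effective spot size gave bounds of 3.89 for miR-146b-5p and 5.24 for miR-155-5p at D4. Scaling by the labelling spike-in RNAs, which the kit adds to each sample and which were brighter than at D0 by 1.88-fold (D4), 1.83-fold (D12) and 1.35-fold (D16), gave 2.69 and 3.62. Quantile normalization gave 1.70 and 2.37. For the fall from D4 to D12, miR-155-5p was at least 4.95-fold lower with the spike-in RNAs and at least 4.49-fold lower after quantile normalization.

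**Figure D4:**
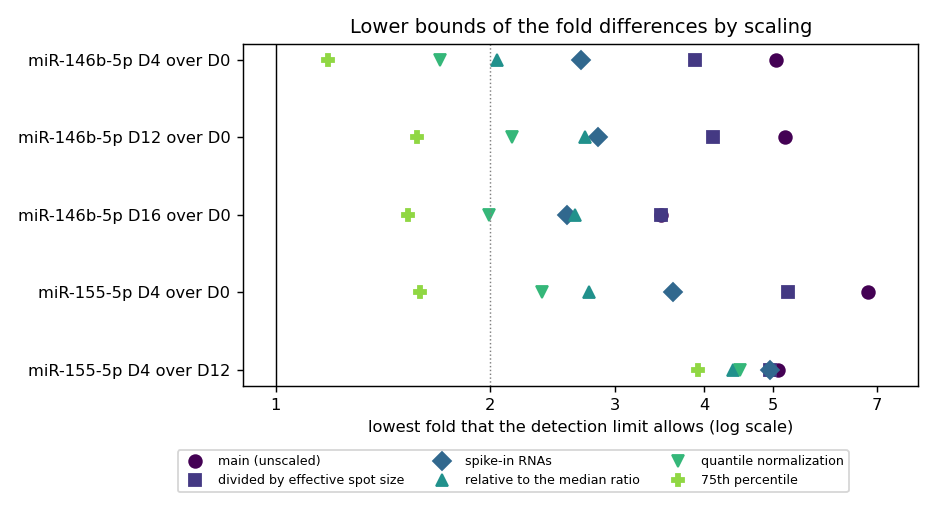
Lowest fold difference that the detection limit allows (log axis) for miR-146b-5p and miR-155-5p under 6 treatments of the array brightness, with solid and dotted vertical lines at 1 and 2. The bounds against D0 range from 1.19 to 6.80, and those of miR-155-5p at D4 over D12 range from 3.92 to 5.08.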

How the data were processed

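Exosome RNA was measured on 4 single-colour Agilent mouse miRNA arrays, 1 per day, grouped by the labelled culture period. The deposited intensity values came from Agilent Feature Extraction 11.0.1.1 (11.0 in the submitters' processing notes), with local background subtracted per spot and no scaling between arrays. An undetected miRNA is listed at 0.1. That a miRNA is called detected when a probe exceeds 3 errors was checked on the files and gave the deposited call for all 1881 miRNAs on each array.

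Ratios and limits were computed with Python 3.11.15, numpy 2.4.6 and pandas 2.3.3. Unscaled ratios were the main values because the study's text names division by the D0 signal and does not mention a scaling between arrays. The ratios the study lists are not plain quotients of the deposited signals, so the main values do not follow its processing, whose scaling is not given in the sources used here. The limit of an undetected miRNA was 3 errors summed over its probes. A ratio above 2 or below 0.5 counted as past the threshold. With 1 array per day no test was made. The error of a limit-based fold is that of the detected signal. Steps were tested on simulated arrays, and most known changes were recovered. Where an array was made brighter by the same factor for all miRNAs, unscaled ratios also put many unchanged miRNAs past the threshold. Passing the threshold unscaled therefore does not separate a change from a brighter array. The 75th percentile put no unchanged miRNA past it, but scaling by a single factor undoes such a brightening by design. That result does not show which scaling suits the real arrays. There the D4 factor was 4.26 by the 75th percentile and 1.88 by the spike-in RNAs. Quantile normalization put no unchanged miRNA above 2, but it called 13 miRNAs lower at D4 though none had been made lower there.

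Alternatives were 3 scalings, 2 ways of summing probes, normexp background correction with an offset of 50 (limma 3.58.1, R 4.3.3), spots on the right side of the array, and probes with at least 50% of spots well above background. After the data were seen, division by the effective spot size, division by the median ratio, 2 other limits and the D16/D4 ratio of miR-155-5p were added. The miRNAs named are the 3 examined, the fixed lists, and the 3 most like a miRNA detected on at least 3 arrays. miRNAs and lists were chosen with earlier results of these data known. Coordinates are those of the RefSeq sequence table on GRCm38.p6; the array header names another build. The study's qPCR and cell experiments were not analysed here.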

Additional observations from a re-analysis of the deposited data

How the results depend on the processing

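No replicate array exists, so no replicate could be left out and every value rests on 1 pool per day; weak signals are limited by the error of about 1 unit per probe. No paired analysis was possible because each group has 1 array. Under the settings run, no ratio past the threshold turned its direction. The ratios are given in the order miR-146b-5p D4/D0, D12/D0 and D16/D0, then miR-155-5p D4/D0, where the ratio to D0 is a lower bound unless said otherwise. The 75th percentile gave 1.19, 1.58, 1.53 and 1.60, quantile normalization 1.70, 2.15, 1.99 and 2.37, the spike-in RNAs 2.69, 2.84, 2.57 and 3.62, and division by the median ratio 2.05, 2.72, 2.64 and 2.76. Division by the effective spot size gave 3.89 and 4.11 for miR-146b-5p at D4 and D12 and 5.24 for miR-155-5p at D4. With the lowest detected D0 signal as the limit they were 20.5, 21.1, 14.1 and 27.8, and with the limit of the detected probe alone 10.0, 10.3 and 6.91 for miR-146b-5p. The sum of all probes gave 41.5, 44.6, 29.5 and 14.5 as plain ratios over D0 sums below the detection limit. Normexp correction with its offset, which draws low signals together, gave plain ratios of 1.58, 1.63, 1.52 and 1.71.

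The D12/D4 ratio of miR-146b-5p was 1.33 with the 75th percentile, 1.26 after quantile normalization and 1.19 relative to the median ratio. Its D16/D12 ratio was 0.970, 0.928 and 0.949 with these 3 settings, 0.905 with the spike-in RNAs, 0.845 after division by the spot size and 0.931 with normexp. The D12/D4 ratio of miR-155-5p was at most 0.255 with the 75th percentile, 0.223 after quantile normalization, 0.228 relative to the median ratio and 0.0481 with the lowest detected signal as the limit. It was 0.0855 over all probes and 0.563 with normexp, the only setting above 0.5. Its D16/D4 ratio was at most 0.294, 0.286, 0.264 and 0.0390 in the same order, 0.217 with the spike-in RNAs and 0.203 after division by the spot size, and it was 0.0665 over all probes and 0.549 with normexp. The remaining 29 values moved by less than the technical error. They include all those from right-side spots and from the filter on spots well above background. The rule of probes detected on both arrays gave no value against D0, where no probe was detected.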
